A study of Mus musculus with 6 samples.

Results

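Conjugation is the step of liver detoxification in which a drug, steroid, bilirubin or other reactive compound is joined to a small soluble molecule, so that it can leave in bile or urine. The genes described here encode the 3 main enzyme families of that step: glutathione transferases (Gst and Mgst genes), UDP-glucuronosyltransferases (Ugt1 and Ugt2 genes) and cytosolic sulfotransferases (Sult genes). They were chosen with earlier results of these data known, and were matched by gene symbol. The rule took the alpha, kappa, mu, omega, pi, theta and zeta glutathione transferases and the microsomal glutathione transferases. It also took the UGT1 and UGT2 glucuronosyltransferases and sulfotransferase families 1 to 6, without pseudogenes marked -ps. Of 23415 genes in the authors' deposited table, 60 met this rule, and 40 of the 60 carried the status that the authors' test requires.

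Liver RNA in 3 libraries named K and 3 named W was sequenced as single-end reads of 50 bases. The study compared mice lacking alkaline sphingomyelinase, an intestinal enzyme that splits dietary sphingomyelin, with wildtype mice, and the letters were read as knockout (82, 84 and 85) and wildtype (81, 83 and 90). All are labelled C57BL/6; the allele, age, sex and diet are not given in the sources used here. The design text names intestine where the sample labels name liver. The deposited values are 1 FPKM value (fragments scaled to transcript length and to library size) per group of 3 libraries, so no value per mouse can be shown, and whether values of single mice overlapped between the groups is not known.

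Glutathione transferases attach glutathione to electrophiles. The alpha, mu, pi and theta classes are soluble enzymes of the cytosol, the zeta enzyme acts in tyrosine breakdown, the kappa enzyme sits in mitochondria and peroxisomes, and the microsomal enzymes are membrane proteins. Glucuronosyltransferases stand in the endoplasmic reticulum and use UDP-glucuronate, and sulfotransferases use the sulfate donor PAPS. Many of these genes lie in tandem clusters of close relatives, and all functional UGT1A mRNAs join a private first exon to the same downstream exons.

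In the text that follows, pairs of values give the knockout group first and the wildtype group second. Ratios are log2 of knockout over wildtype, with the standard error (SE) that the authors' test statistic implies; this is a model error and not an observed spread between mice. A gene is said to have fallen or risen when the q given by the authors' deposited table is under 0.05. Over all 11515 tested genes, 0.504% were lower in the knockout group at this threshold and 0.573% were higher, 1.08% in all.

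Among conjugation genes 2 fell and 0 rose, and the other 38 of the 40 tested did not pass. Gstt3, a theta class glutathione transferase, fell to 15.1 from 31.2 FPKM, and Gstm3, a mu class glutathione transferase, fell to 41.2 from 81.4 FPKM. At an unadjusted p under 0.05 in the authors' deposited table there were 8 members, all lower in the knockout group, which is 20.0% of the 40 tested. At that level 2.47% of all tested genes were lower and 2.82% higher, 5.29% in all. With q under 0.10 the members called were 3, Gsta4 being added, against 1.42% of all tested genes, 0.686% lower. Of the 8, 7 are cytosolic glutathione transferases and 1 is a sulfotransferase. The ratio was below 0 in 32 of the 40, against 50.1% of all tested genes, and the median ratio of the 40 was -0.20 against -0.0012 for all tested genes.

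The sequences just before the start sites of glutathione transferase genes are shown first, because the genes with the lowest ratios lie in clusters of near relatives. RefSeq promoter windows (GRCm38.p6, 250 bases before to 50 after each start) matched 53 of the 60 members by symbol. Gsta4 and Gstt2 are not among the 53, so they entered neither the motif search nor the comparison of pairs. Both genes that fell are shown up to the start that GENCODE M21 gives, which for Gstm3 lies before the RefSeq start and leaves 141 of the 250 upstream bases. Neither window of 300 bases holds the antioxidant response element TGACNNNGC or the dioxin response core GCGTG on either strand, so no base is in capitals.
Gstt3, chr10:75781415-75781664, minus strand: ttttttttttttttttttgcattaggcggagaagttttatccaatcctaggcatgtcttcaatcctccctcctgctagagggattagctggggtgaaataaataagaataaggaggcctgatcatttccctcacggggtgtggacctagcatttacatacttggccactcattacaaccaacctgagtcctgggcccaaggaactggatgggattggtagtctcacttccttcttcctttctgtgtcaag
Gstm3, chr3:107969284-107969424, minus strand: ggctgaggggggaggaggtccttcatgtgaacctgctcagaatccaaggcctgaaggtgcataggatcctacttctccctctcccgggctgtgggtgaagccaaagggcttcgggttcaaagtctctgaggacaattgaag
Gsta1 and Gsta2, alpha class genes of the same cluster, are shown from 80 bases before to 10 after the start because they are the most alike of the alpha, mu and theta pairs compared, with 71.4% of the aligned positions of their 250 upstream bases identical. Capitals mark GCGTG, which begins 2 bases before the start of Gsta1 and 7 bases before that of Gsta2.
Gsta1, chr9:78230589-78230678, plus strand: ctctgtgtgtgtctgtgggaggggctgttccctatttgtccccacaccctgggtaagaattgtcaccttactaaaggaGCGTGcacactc
Gsta2, chr9:78347136-78347225, minus strand: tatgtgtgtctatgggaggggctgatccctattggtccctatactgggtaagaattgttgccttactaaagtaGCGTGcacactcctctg
TGACNNNGC occurs in the windows of 4 members, shown with 10 bases on each side and the match in capitals; in Mgst1 it lies on the opposite strand.
Gsta3, chr1:21240454-21240482, plus strand: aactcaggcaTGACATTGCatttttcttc
Gstm5, chr3:107895802-107895830, plus strand: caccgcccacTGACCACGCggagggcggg
Gstm7, chr3:107931725-107931753, minus strand: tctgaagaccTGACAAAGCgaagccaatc
Mgst1, chr6:138140461-138140489, plus strand: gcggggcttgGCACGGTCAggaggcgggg
Among all 32851 RefSeq windows of this length 12.4% hold TGACNNNGC and 32.4% hold GCGTG. Among the 64 windows of members the shares were 6.25% (4 windows) and 18.8% (12 windows). A match is a run of letters and not a site known to be bound.

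In the theta class all 3 tested genes were below 0. Gstt3 had a ratio of -1.05 ± 0.24 (SE), with q = 0.0016 by the authors' deposited table, and a 95% interval of -1.51 to -0.59. Its neighbour Gstt1, which acts on small halogenated compounds, was at 205 against 287 FPKM (-0.49 ± 0.23, q = 0.788 by the authors' deposited table). Gstt2 was at 33.3 against 51.4 FPKM (-0.63 ± 0.23, q = 0.268 by the authors' deposited table). All 3 had an unadjusted p under 0.05, and only Gstt3 passed after adjustment over all genes. Gstt4 was not tested, listed at 0 against 0.0309 FPKM.

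Gstt3 lies on chromosome 10 at 75774122 to 75781414 (mm10), at one end of a cluster of 60.8 kb with Gstt1, Gstt4 and Gstt2. GENCODE M21 gives it as a protein-coding gene on the minus strand. The protein-coding model Gm20441 overlaps it on the same strand: 20.2% of the distinct 50-base windows of Gstt3's coding transcripts also occur in Gm20441, and 0% occur in another member. Expression of Gm20441 was not analysed here, and reads from the shared stretch cannot be told apart.

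The mu class was split along its cluster on chromosome 3. In chromosome order the 7 tested genes are Gstm5, Gstm7, Gstm6, Gstm3, Gstm2, Gstm1 and Gstm4, over 168 kb. Gstm3 was at 41.2 against 81.4 FPKM (-0.98 ± 0.25, q = 0.0106 by the authors' deposited table). The next gene, Gstm2, was at 48.4 against 71.4 FPKM (-0.56 ± 0.23), and Gstm1, the most abundant mu enzyme of these livers, at 859 against 1293 FPKM (-0.59 ± 0.30, q = 0.972 by the authors' deposited table). These 3 genes stand next to each other, and the 4 on either side were within 1 SE of 0 in ratio. Gstm6 was at 78.5 against 83.98 FPKM, Gstm7 at 40.8 against 43.2 FPKM, and Gstm4 at 40.3 against 44.0 FPKM. Gstm5 was at 13.3 against 11.2 FPKM (0.25 ± 0.32), the one mu gene above 0. The ratios of these 4 ran from -0.13 to 0.25. The difference between the 3 and the 4 was not tested, and the division was drawn after the values were seen.

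**Figure D1:**
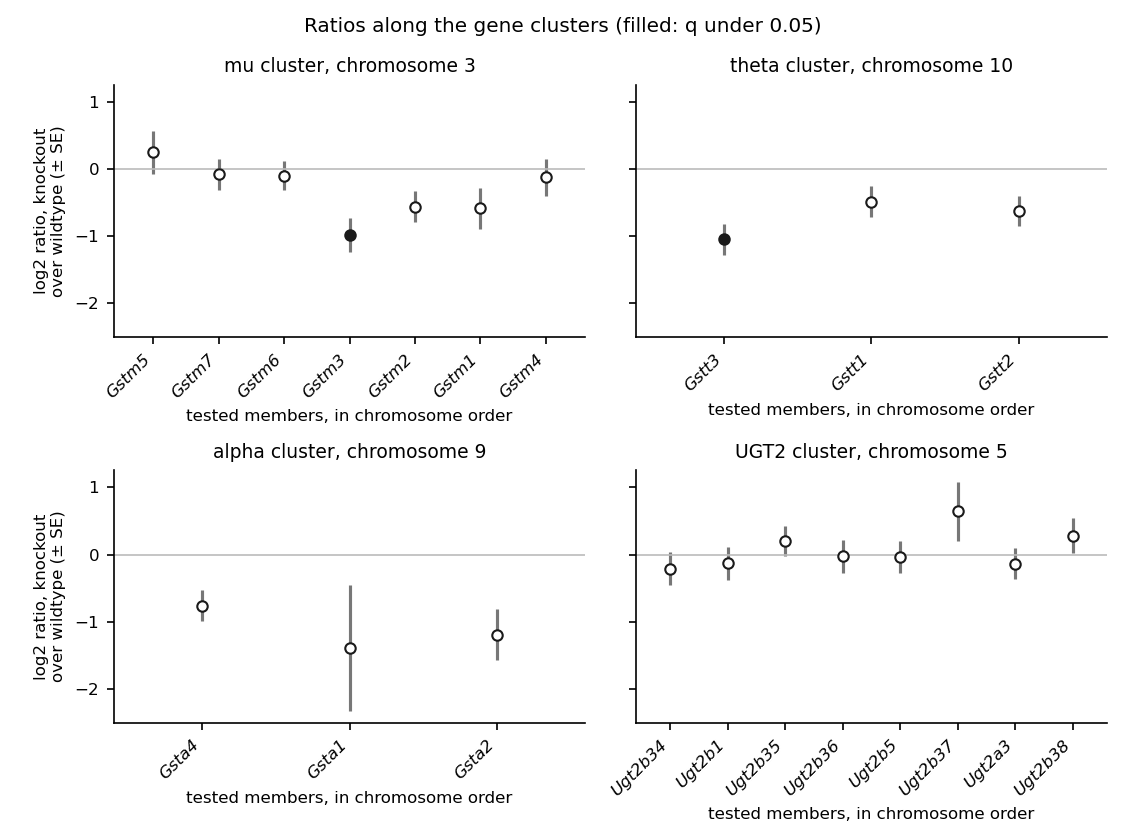
Log2 ratio of knockout over wildtype (vertical axis) with the standard error of the authors' model for each tested member, in chromosome order, in 4 clusters; filled points have q under 0.05. Gstm3, Gstm2 and Gstm1 sit at -0.98, -0.56 and -0.59 between neighbours near 0, all 3 theta and all 3 chromosome 9 alpha genes sit below 0, and the UGT2 genes scatter between -0.21 and 0.65.

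Gstm3 lies on chromosome 3 at 107963696 to 107969174 (mm10), a protein-coding gene on the minus strand in GENCODE M21. Of its distinct 50-base windows 28.8% also occur in another gene, with 16.0% of all its windows in the processed pseudogene Gm8834, 11.0% in the processed pseudogene Gstm2-ps1 and 15.8% in another member. For Gstm1 the share found in any other gene was 19.9%, for Gstm2 8.30% and for Gstm6 9.74%, while Gstm4 shared none. The authors' placing of reads that match several genes was not given in the sources used here, so the values of Gstm3 and Gstm1 are uncertain to that degree.

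Alpha class genes, whose enzymes also isomerise steroids and reduce lipid peroxides, had ratios below 0 in 4 of 4, and none passed. Gsta4, which conjugates the lipid peroxidation product hydroxynonenal, was at 47.1 against 79.9 FPKM (-0.76 ± 0.23, q = 0.0716 by the authors' deposited table). Gsta2 was at 4.09 against 9.34 FPKM (-1.19 ± 0.38, q = 0.102 by the authors' deposited table). Gsta3, which lies apart from the others on chromosome 1 and is the abundant alpha enzyme of mouse liver, was at 894 against 1284 FPKM (-0.52 ± 0.30). Gsta1 was the lowest tested member in level, at 0.293 against 0.769 FPKM (-1.39 ± 0.94). The class held the lowest median ratio of the classes with 3 or more tested genes, -0.98, but Gsta1 and Gsta2 carry weight in it: with 1 FPKM added to each value the median was -0.63.

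Gsta1 and Gsta2 cannot be cleanly separated from their relatives. Of their 50-base windows 89.7% and 47.4% also occur in another gene, most of Gsta1's in the gene model Gm3776. Gsta3 and Gsta4 share 0% of theirs, so for them no such overlap was found.

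In summed level the 3 classes stood close to one another. Alpha genes summed to 946 against 1374 FPKM, a log2 ratio of the sums of -0.54. Mu genes summed to 1122 against 1628 FPKM (-0.54) and theta genes to 253 against 369 FPKM (-0.55). Each sum is set mostly by 1 gene, Gsta3, Gstm1 or Gstt1, and none of those 3 passed the test. Scaling of both groups to the same sum of listed values lowers every ratio by 0.19, so no ratio below 0 could turn there. After quantile normalization the 4 alpha and 3 theta genes were below 0, and 6 of 7 mu genes. The same counts held with the same sum.

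The other soluble glutathione transferases had ratios nearer to 0. Gstp1, the pi class enzyme and the most abundant soluble transferase of these livers, was at 1707 against 1713 FPKM (ratio -0.00 ± 0.29). The 95% interval from the model error runs from -0.57 to 0.56, so a change of up to about that size could have been missed. Gstp2 was at 5.01 against 5.61 FPKM, and 51.0% of Gstp1's and 50.4% of Gstp2's windows occur in another gene, those of Gstp1 in Gstp2. Gstk1, the kappa enzyme, was at 111.1 against 112 FPKM (-0.01 ± 0.22). Gstz1, maleylacetoacetate isomerase, was at 373 against 371 FPKM (0.01 ± 0.27). Gsto1, an omega class enzyme that reduces dehydroascorbate, was at 70.4 against 84.6 FPKM (-0.27 ± 0.22). None of the 5 passed or had an unadjusted p under 0.05, and Gsto2, at no more than 0.0869 FPKM, was not tested.

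Mgst1, the microsomal transferase, was the most abundant of all members, at 3529 against 3377 FPKM (0.06 ± 0.36), place 20 among all genes listed. Its ratio turned to -0.13 with the groups brought to 1 common sum and to -0.61 after quantile normalization, neither of which passed. Mgst3 was at 16.9 against 22.3 FPKM (-0.40 ± 0.30). Mgst2, a membrane enzyme that can make leukotriene C, was not tested, at 0.405 against 0.114 FPKM.

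**Figure D2:**
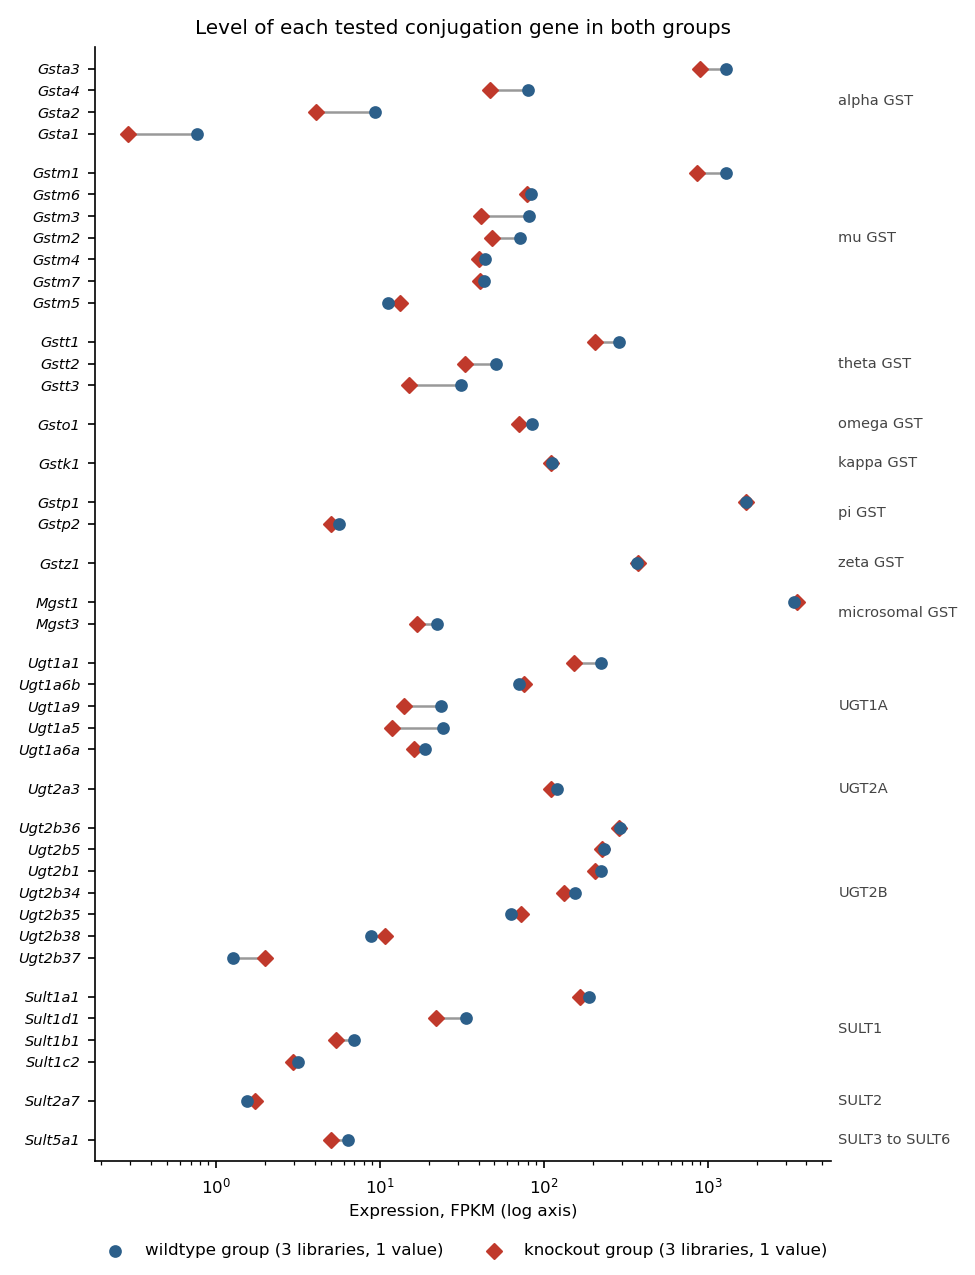
Expression of the 40 tested members in FPKM (log axis), 1 point per group, blue circles for wildtype and red diamonds for knockout, ordered by level within each class. The red diamond lies to the left in every alpha and theta gene, while Gstp1, Gstk1, Gstz1 and Mgst1 overlap.

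None of the 13 tested glucuronosyltransferases passed, and none had an unadjusted p under 0.05. The UGT2B genes, which handle steroids, bile acids and many drugs, had a median ratio of -0.03, with 4 of 7 below 0. Ugt2b36 was at 286 against 291 FPKM (-0.03 ± 0.25), Ugt2b5 at 226 against 232 FPKM (-0.04 ± 0.24) and Ugt2b1 at 205 against 224 FPKM (-0.13 ± 0.25). Ugt2b34 was at 133 against 154 FPKM and Ugt2b35 at 72.7 against 63.3 FPKM. The lowest bound of the 95% intervals of those 5 abundant genes was -0.68, for Ugt2b34. The highest ratio was that of Ugt2b37, at 1.98 against 1.27 FPKM (0.65 ± 0.44), and Ugt2b38 was at 10.7 against 8.79 FPKM. Ugt2b5, Ugt2b38 and Ugt2b37 share 41.7%, 37.4% and 18.3% of their windows with other genes. Ugt2a3 was at 110 against 121 FPKM (-0.14 ± 0.23), and Ugt2a1 and Ugt2a2 were not tested, at no more than 0.0393 FPKM.

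Of the 5 tested UGT1A genes 4 had ratios below 0, and all but Ugt1a1 had an SE wider than any other tested member. Ugt1a1, the bilirubin-conjugating enzyme, was at 153 against 222 FPKM (-0.54 ± 0.41). Ugt1a5 was at 11.9 against 24.4 FPKM, with a ratio of -1.03 and an SE of 3.62, and Ugt1a9 at 14.1 against 23.5 FPKM (-0.73 ± 1.24). Ugt1a6a was at 16.1 against 19.0 FPKM (-0.23 ± 2.77) and Ugt1a6b, like it a phenol-conjugating enzyme, at 75.6 against 70.4 FPKM (0.10 ± 1.13). The ratio of Ugt1a5 is thus almost the same as that of Gstt3, with an error many times as wide. Ugt1a10, Ugt1a2 and Ugt1a7c were not tested and stood at no more than 0.511 FPKM. All 8 rows carry the same span, chromosome 1 from 88055411 to 88220002 (mm10).

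Between 62.0% and 96.0% of the 50-base windows of the 5 tested UGT1A genes also occur in another gene, with a median of 79.8%. The SE of their ratios ran from 0.41 to 3.62 with a median of 1.24. In the 35 tested members outside UGT1A the median share was 1.44% and the median SE 0.25, with a highest SE of 0.94, that of Gsta1. The locus as a whole, summed over its 8 rows, was at 271 against 360 FPKM, a log2 ratio of -0.41 to which no error can be given here.

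**Figure D3:**
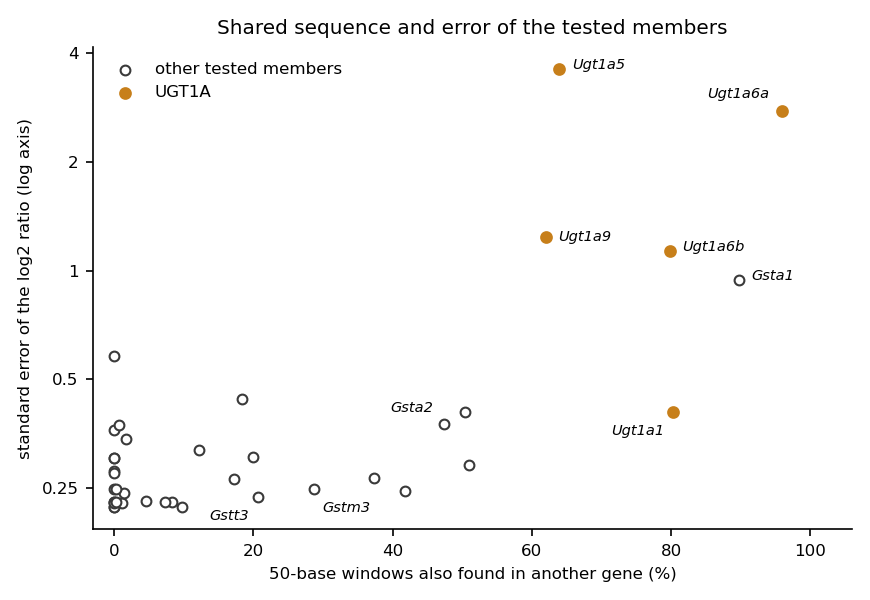
Share of the distinct 50-base windows of each tested member that also occur in a transcript of another gene (horizontal axis, percent) against the standard error of its log2 ratio (vertical, log axis). The 5 UGT1A genes (filled) lie between 62.0% and 96.0%, 4 of them above an SE of 1; Gsta1 at 89.7% lies next to them, and Gstm3 and Gstt3 lie at 28.8% and 20.6% with SEs near 0.25.

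Of the 18 sulfotransferases only 6 were tested, and 0 passed. Family members listed under other symbols were not searched for. Sult1a1, which sulfates phenols and had the highest level of the 18, was at 165 against 189 FPKM (-0.19 ± 0.23). Sult1d1, a catecholamine and eicosanoid sulfotransferase, had the lowest ratio, at 21.8 against 33.6 FPKM (-0.62 ± 0.23, q = 0.288 by the authors' deposited table). Sult1b1, which acts on thyroid hormone, was at 5.40 against 6.95 FPKM (-0.36 ± 0.27), and Sult1c2 at 2.95 against 3.15 FPKM. All 4 tested SULT1 ratios were below 0, with a median of -0.28. Sult5a1 was at 5.07 against 6.35 FPKM (-0.33 ± 0.34) and Sult2a7 at 1.72 against 1.55 FPKM (0.15 ± 0.58).

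Apart from Sult2a7, the sulfotransferases of families 2 and 3 that were matched by symbol stood at no more than 0.183 FPKM and were not tested. The highest of them was Sult2b1, the cholesterol sulfotransferase. Sult2a2, Sult2a3, Sult2a4, Sult2a5 and Sult2a6 were listed at 0 in both groups. Sult2a1 was listed at 0 against 0.0343 FPKM, and Sult3a1 at 0 against 0.0268 FPKM. Sult1e1, the estrogen sulfotransferase, was at 0.0564 and 0.0278 FPKM. Several of these genes are known for much higher expression in female than in male mouse liver, and the labels give no sex. The Y-linked transcripts Ddx3y (8.78 and 9.52 FPKM) and Eif2s3y (20.7 and 22.7 FPKM) were present in both groups, while Xist stood at 0.0034 and 0.0491 FPKM.

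**Figure D4:**
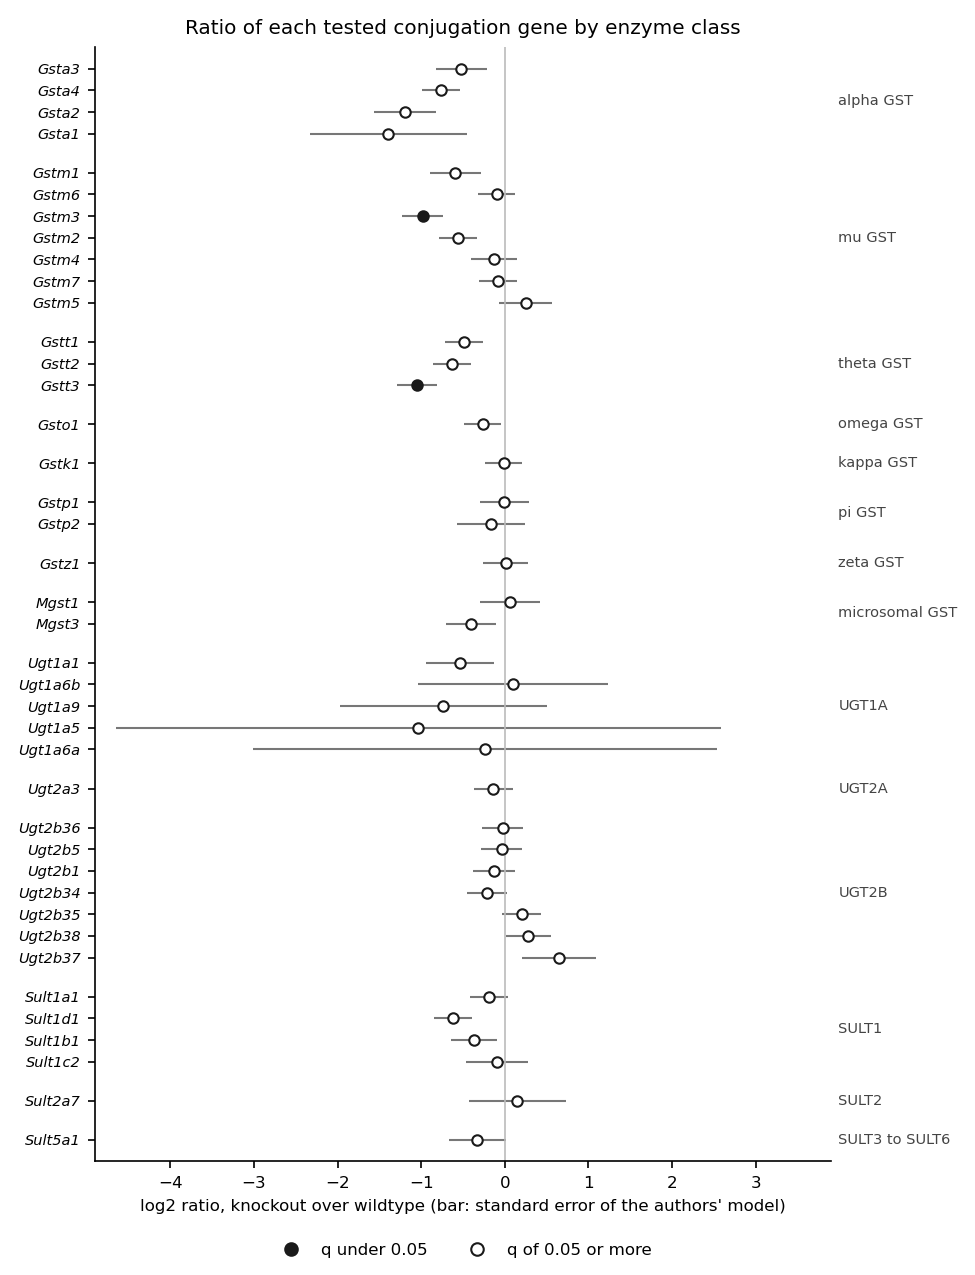
Log2 ratio of knockout over wildtype for each of the 40 tested members, by class, with the standard error of the authors' model as a bar; filled points, Gstm3 and Gstt3, have q under 0.05. Alpha and theta genes lie below 0, UGT2B genes around it, and the bars of Ugt1a5 and Ugt1a6a span several units.

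Summed over all members, the listed FPKM of conjugation genes was 9652 against 10753, which is 1.49% and 1.90% of all listed FPKM. The 15 alpha, mu and theta genes summed to 2321 against 3371 FPKM, and the other 45 to 7332 against 7382 FPKM. This grouping too was made after the values were seen and has no test. The listed total itself differed between the groups by 0.19 on the log2 scale, the knockout total being higher. Acute phase genes, described below, made up 11.5% of the knockout total and 2.67% of the wildtype total. Their part in the difference was not tested. Scaling both groups to the same sum moved the median of all tested genes to -0.20 and called 6 members, all lower: Gstt3, Gstm3, Gsta4 (ratio -0.96, q = 0.0037 after that scaling), Gsta2 (-1.39), Gstt2 (-0.82) and Sult1d1 (-0.82). Of all tested genes 1.22% were then called lower and 0.426% higher. Quantile normalization called Gstt3 and Gstm3 alone among the members, against 0.530% of all tested genes lower and 0.521% higher.

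Supply of the cosubstrates was described by lists chosen by function, with earlier results of these data known. In the list for glutathione synthesis and breakdown, 1 of 19 tested genes rose and 0 fell: Chac1, which degrades glutathione, was at 6.21 against 1.85 FPKM (1.75 ± 0.37). Gclc, the catalytic subunit of the rate-limiting enzyme of glutathione synthesis, was at 76.8 against 56.0 FPKM (0.45 ± 0.23), and did not pass. Nat8, an acetyltransferase of the mercapturate pathway, was at 5.88 against 12.05 FPKM (-1.03 ± 0.34, q = 0.129 by the authors' deposited table). The list's median was 0.04.

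For sulfation, 0 of 14 tested genes of PAPS and sulfate supply passed, and Papss2, a PAPS synthase, was at 32.9 against 55.6 FPKM (-0.76 ± 0.23, q = 0.0650 by the authors' deposited table). For glucuronidation, 0 of 10 passed, and Ugp2, which makes UDP-glucose, was at 55.3 against 78.4 FPKM (-0.50 ± 0.23). Of 10 tested conjugate efflux transporters 0 passed, with Abcc3, a basolateral exporter of glucuronides, at 48.0 against 72.7 FPKM (-0.60 ± 0.24). Of 13 deconjugating and hydrolytic enzymes 1 fell, the carboxylesterase Ces1d, at 211 against 403 FPKM (-0.93 ± 0.26). The medians of these 4 lists were -0.09, -0.10, -0.11 and -0.14.

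None of 28 tested transcription factors that are known to act on conjugation genes passed. Their median was -0.00, with 14 ratios below 0 and 14 above. The highest ratio was that of Foxa2, at 15.6 against 10.9 FPKM (0.52 ± 0.24). At an unadjusted p under 0.05 it was the 1 factor higher and 2 were lower, against 2.82% and 2.47% of all tested genes. Bcl6, at 6.84 against 11.5 FPKM (-0.75 ± 0.26), is 1 of those 2. The xenobiotic sensor Nr1i3 (CAR) was at 40.1 against 54.8 FPKM (-0.45 ± 0.26), Nfe2l2 (NRF2) at 18.2 against 23.1 FPKM (-0.34 ± 0.23) and Ahr at 4.77 against 6.00 FPKM (-0.33 ± 0.24). Among reference targets, 4 of 15 tested CAR and PXR targets fell and 0 rose, with a median of -0.60. The organic anion carrier Slco1a4 was at 10.5 against 24.8 FPKM, the cytochromes P450 Cyp2a5 at 229 against 462 FPKM and Cyp2c55 at 4.89 against 10.2 FPKM, and Por, their electron donor, at 167 against 312 FPKM. Of 19 tested NRF2 targets outside the transferases 1 fell and 0 rose, with a median of -0.03. That gene was Me1, the cytosolic malic enzyme, at 43.9 against 86.3 FPKM. Gclc is on this list as well, and Abcc3 is also on the CAR and PXR list. Of 3 tested AhR targets 0 passed.

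Marker lists of other cells and states differed in direction. Of 23 acute phase genes 13 rose, and the list summed to 74427 against 15087 FPKM. Neutrophil and monocyte markers rose in 4 of 10 tested and summed to 178 against 56.7 FPKM, and Kupffer cell markers rose in 2 of 11 and summed to 526 against 332.7 FPKM. Of 8 tested cholangiocyte markers 1 rose, Spp1, at 142 against 62.6 FPKM, and all 8 had ratios above 0. Of 11 stellate cell and fibroblast markers 0 passed, 9 had ratios below 0 and 3 were lower at an unadjusted p under 0.05, with a median of -0.24. Of 11 sinusoidal endothelium markers 0 passed, 8 had ratios below 0 and 1 was lower at an unadjusted p under 0.05, with a median of -0.12. Their part in the conjugation values was not tested, and in whole liver fewer cells of a type and less RNA per cell cannot be told apart. Hepatocyte markers summed to 48412 against 39976 FPKM, with 0 of 14 tested passing, while 8 of the 14 ratios were below 0 and the median was -0.08. The largest gaps in that sum were those of Apoa1, at 16007 against 11662 FPKM, and Fgb, at 5949 against 2339 FPKM, which is on the acute phase list too. Alb is listed at 0 in both groups and was not tested. Its status is HIDATA, where the untested members carry NOTEST, so its 0 was not read as absence. The sums and listed totals given here therefore hold no value for Alb. Pericentral and periportal hepatocyte markers, 17 of each tested, had medians of -0.14 and -0.13, with 0 called in either. Intestinal epithelium markers summed to 186 and 184 FPKM, with 0 of 6 tested passing. The other 7 listed were not tested, at no more than 0.267 FPKM, so the sum comes from part of the list.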

How the data were processed

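Per the submitters' processing notes, Bowtie2 and mm10 were used; the program that made the tables and its handling of reads with several matches are not given in the sources used here. The authors deposited 1 FPKM value per group; the file headers name no unit, and FPKM was read from the Cuffdiff layout. Values per library were not used here, so the planned limma test and the fits without each library could not be run, and read depth is unknown. The deposited log2 ratio (wildtype over knockout, per the file headers) was turned round, and matched the values within 1.29e-05. The SE is the ratio divided by the authors' deposited test score. The authors' p-value and q-value were used as deposited; q equals the Benjamini-Hochberg adjustment over all 11515 tested genes within 1.99e-06. The authors' short list holds the 95 of 124 called genes with a log2 change of at least 1; Gstt3 is on it, and Gstm3, at -0.98, is not.

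Rescaled ratios were tested against the same SE. The calling step was also run on simulated ratios, not rescaled, with noise drawn from that SE. That run cannot check the SE itself. Windows of 50 bases of coding transcripts were matched exactly, on either strand, to all GENCODE M21 transcripts (GRCm38, the mm10 build). Motifs were searched in RefSeq promoters of GRCm38.p6. Protein sequences were not used here. The naming rule took called members, members with an unadjusted p under 0.05, the most abundant member and the one with the smallest p in each class, all tested SULT2, SULT3 and UGT1A genes, and from each other list the called genes or else the smallest p. Genes outside it were named after their values were seen. A gene that the rule takes is not reported here. Members and lists were chosen with earlier results of these data known. Python 3.11.15, scipy 1.17.1 and biopython 1.88 were used.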

Additional observations from a re-analysis of the deposited data

How the results depend on the processing

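Gstt3 and Gstm3 stayed called as lower after quantile normalization. Their calls at q under 0.10 and with the same sum add no check. The first is a looser threshold, and the second lowers every ratio by 0.19 at an unchanged SE. The count of called members stayed at 2 or 3 under the other settings, and was larger after scaling to the same sum (6, of which 5 cytosolic glutathione transferases and 1 sulfotransferase) and at an unadjusted p under 0.05 (8, of which 7 and 1). The median of the alpha class was -0.63 with a pseudocount of 1. Signs turned for Gstz1 (-0.19 with the same sum, -0.057 after quantile normalization), Mgst1 (-0.13 and -0.61), Sult2a7 (-0.043 with the same sum) and Ugt1a6b (-0.093 with the same sum), none of them called. With the same sum 2 genes of the glutathione list were called, 1 lower and 1 higher. In that setting 1 gene of the sulfate list and 2 transcription factors were called, all lower. Of all tested genes 1.22% were then lower and 0.426% higher. At q under 0.10 the sulfate list and the transcription factors each had 1 call, lower, against 0.686% of all tested genes lower. The causes were not tested. No paired analysis was possible because each group has 1 value, and leaving out single libraries was not possible for the same reason. Depth is unknown; with a median SE of 0.27 among tested members, the smallest absolute log2 ratio of any called gene in the table was 0.78.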

Other observations

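Conjugating enzymes outside the 3 families were also compared. Of 19 tested genes 0 passed, 8 had ratios below 0 and the median was 0.05. Inmt, which methylates indoles and thioethers, was at 918 against 1446 FPKM (-0.66 ± 0.28 on the log2 scale; the authors' deposited table gives q = 0.602), and Nnmt, which methylates nicotinamide, at 199 against 158 FPKM (0.34 ± 0.23). Known sex-biased liver genes were read beside the sulfotransferases. Of 6 tested female-biased genes 1 fell, Acot3, and 3 were lower at an unadjusted p under 0.05. Of all tested genes, 0.504% and 2.47% were lower at these 2 thresholds. The 3 are Acot3, Cyp2a4 and Fmo2, all at no more than 4.02 FPKM. The ratio was above 0 in 2 of the 6, and the other 8 genes of the list were not tested. Of 15 male-biased genes 1 rose, Elovl3, and 3 were higher at an unadjusted p under 0.05. Of all tested genes, 0.573% and 2.82% were higher at these 2 thresholds. Ratios were below 0 in 4 of the 15 and above 0 in 11. The Y-linked transcripts gave no called difference (0 of 4).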
